A study of Mus musculus with 20 samples.

Results

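The genes described are 7 genes of cholesterol synthesis and its control, Hmgcs1 (ENSMUSG00000093930), Idi1 (ENSMUSG00000058258), Fdft1 (ENSMUSG00000021273), Sqle (ENSMUSG00000022351), Lss (ENSMUSG00000033105), Insig1 (ENSMUSG00000045294) and Srebf2 (ENSMUSG00000022463), together with Ch25h (ENSMUSG00000050370), which encodes cholesterol 25-hydroxylase. They were taken by gene symbol, giving 8 of the 55891 gene IDs counted, and all 8 passed the filter on low counts. RNA was sequenced from primary mouse renal tubular epithelial cells of the strain B6.129-Ptprz1tm1Nmo, which carries a targeted allele of the receptor phosphatase gene Ptprz1. The cells were heterozygous (het) or knockout (KO) for that allele. They were left untreated (control) or given lipopolysaccharide (LPS) at 100 ng/mL with interferon gamma (IFNγ) at 10 ng/mL for 24 h (stimulated). Each of the 4 groups had 5 libraries. The series names the het cells as its Ptprz-expressing comparator, so no wild-type cells enter, and all 20 libraries come from cells with at least 1 targeted allele. The sources used here give neither the age nor the sex of the animals. The labels name 10 animals, each with 1 control and 1 stimulated library. Animals 5 and 7 are listed under KO in 1 state and het in the other.

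Cells make cholesterol from acetyl-CoA through the mevalonate and squalene pathways. The transcription factor SREBP2, encoded by Srebf2, switches on most genes of this route when sterols in the endoplasmic reticulum run low, and INSIG proteins hold its precursor there when sterols are plentiful. Ch25h makes 25-hydroxycholesterol, an oxysterol that binds INSIG proteins and blocks SREBP2 processing, and the gene is known as an interferon- and LPS-induced gene of macrophages. The question asked of these libraries was whether SREBP2 target transcripts were lower where Ch25h was higher.

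Total counts per library ran from 12899528 to 20411411. Ptprz1 itself was nearly undetected, with a median of 0 CPM (counts relative to the scaled library size) in het control, 0.121 in het stimulated and 0 in both KO groups, so it gives no check of the genotype labels. Nos2, Gbp2 and Tap1, induced by LPS or IFNγ, were checked against the treatment label, and 4 libraries went against it. In animal 4 (het replicate 5) and animal 8 (KO replicate 4) the library labelled stimulated had Gbp2 at 12.86 and 13.01 CPM and the library labelled control at 481.5 and 1491 CPM. In the other 8 animals Gbp2 was at 9.195 to 26.99 CPM in control and 3394 to 11520 CPM in stimulated libraries. Results are therefore given for all 20 libraries and for the 16 libraries of the other 8 animals. Tubular markers summed to 458 to 2061 CPM. Fibroblast markers ranged from 33.4 to 14690 CPM. The 8 leukocyte markers summed to 78.8 and 65.9 CPM in the control and stimulated libraries of animal 1 and to 299 and 195.5 CPM in those of animal 9 (both het), against 4.23 to 21.7 CPM in the other 16 libraries, with the T cell marker Cd3e at 0 in every library. In bulk RNA, fewer cells of a type and less RNA per cell cannot be told apart.

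Promoter windows were searched for the letters of the sterol response element, the sequence SREBP2 binds. RefSeq windows (GRCm38.p6, 250 bases before to 50 after the gene start) were found for 6 of the 8 genes, and 5 are printed to set the SREBP2 genes beside Ch25h. The counts were made on another build, so the positions serve only to locate these windows. Capitals mark matches to TCACNCCAC (sterol response element), its shorter form TCACNCCA, which lies inside it and was added after the windows had been read, and CCAAT, read on both strands (ATTGG is CCAAT on the other strand).
Hmgcs1 (chr13:119690101-119690400, plus strand): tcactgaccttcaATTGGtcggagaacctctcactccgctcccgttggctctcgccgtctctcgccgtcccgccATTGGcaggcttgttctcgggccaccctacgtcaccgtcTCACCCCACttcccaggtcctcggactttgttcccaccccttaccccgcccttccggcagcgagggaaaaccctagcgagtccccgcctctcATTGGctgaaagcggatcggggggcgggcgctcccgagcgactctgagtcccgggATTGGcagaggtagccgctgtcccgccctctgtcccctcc
Srebf2 (chr15:82147019-82147318, plus strand): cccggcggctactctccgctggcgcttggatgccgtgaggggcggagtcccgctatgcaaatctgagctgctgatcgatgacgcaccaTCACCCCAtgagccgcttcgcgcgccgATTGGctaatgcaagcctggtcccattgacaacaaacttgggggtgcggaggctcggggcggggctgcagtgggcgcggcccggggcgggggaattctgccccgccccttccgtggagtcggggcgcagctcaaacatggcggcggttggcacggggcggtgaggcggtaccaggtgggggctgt
Idi1 (chr13:8885356-8885655, plus strand): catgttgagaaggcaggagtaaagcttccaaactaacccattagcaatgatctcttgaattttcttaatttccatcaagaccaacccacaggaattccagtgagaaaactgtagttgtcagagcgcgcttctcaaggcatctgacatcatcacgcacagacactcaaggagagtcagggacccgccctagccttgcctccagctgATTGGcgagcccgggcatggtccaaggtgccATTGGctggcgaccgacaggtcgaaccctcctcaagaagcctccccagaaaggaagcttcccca
Insig1 (chr5:28071162-28071461, plus strand): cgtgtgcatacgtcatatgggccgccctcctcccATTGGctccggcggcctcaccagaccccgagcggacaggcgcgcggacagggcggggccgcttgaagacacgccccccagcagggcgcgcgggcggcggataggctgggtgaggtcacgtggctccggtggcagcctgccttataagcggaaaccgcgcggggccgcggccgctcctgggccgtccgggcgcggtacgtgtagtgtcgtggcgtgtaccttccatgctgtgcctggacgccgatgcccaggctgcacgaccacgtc
Ch25h (chr19:34475099-34475398, minus strand): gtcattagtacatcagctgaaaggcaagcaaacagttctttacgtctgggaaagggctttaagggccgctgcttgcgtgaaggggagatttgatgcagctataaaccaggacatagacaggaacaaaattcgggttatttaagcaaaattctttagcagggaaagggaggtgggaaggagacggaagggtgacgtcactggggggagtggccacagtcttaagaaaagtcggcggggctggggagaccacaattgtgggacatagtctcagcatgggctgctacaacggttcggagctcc
The Hmgcs1 window held 1 full element, from -137 to -129 relative to the start, and the Srebf2 window held the shorter form from -162 to -155. CCAAT occurred 4 times in Hmgcs1, 2 times in Idi1 and once each in Srebf2, Insig1 and Lss. Of 32851 windows of this length, 1.24% held the full element, 4.36% the shorter form and 37.4% CCAAT. The Ch25h window held none of these, nor the interferon-stimulated response element (in 3.44% of windows) or the NF-kB site (0.411%), each searched on both strands. It also held no match to the GAS motif TTCNNNGAA, found in 8.3% of windows. No match says only that these letters are not in this window.

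Ch25h was barely counted in control cells and was higher in stimulated cells of both genotypes. In het control replicates 1 to 5 it was at 0.134, 0, 0.109, 0.102 and 0.834 CPM. In het stimulated replicates 1 to 5 it was at 3.58, 0.942, 0.651, 3.12 and 0.208 CPM. In animal 4 (replicate 5) the control library was the higher. In KO control replicates 1 to 5 the level was 0.0582, 0.108, 0.0584, 0.187 and 0.511 CPM. In KO stimulated replicates 1 to 5 it was 1.09, 1.26, 1.62, 0.0647 and 1.79 CPM, with animal 8 (replicate 4) again the exception. Without animals 4 and 8, Ch25h ran from 0 to 0.134 CPM in het control and 0.651 to 3.58 CPM in het stimulated libraries. In KO cells it ran from 0.0582 to 0.511 CPM and 1.09 to 1.79 CPM. Those 2 animals were set apart by genes induced by the same treatment, and the share of all genes separated in this way was not counted. These levels rest on 0 to 15 counts in control and 1 to 59 in stimulated libraries, and the library with 0 counts allows up to 0.191 CPM. Ch25h passed the filter on low counts through the libraries where it was high, mostly stimulated ones. Its passing the filter and its rise are therefore not separate results.

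Over the 16 libraries Ch25h rose by 4.42 ± 0.82 on the log2 scale in het cells (SE, edgeR's quasi-likelihood test, adjusted p = 0.00299), from 0.0864 ± 0.0592 CPM (SD, n = 4 libraries) to 2.07 ± 1.49 CPM. In KO cells it rose by 2.99 ± 0.77 (edgeR adjusted p = 0.0317), from 0.184 ± 0.219 CPM to 1.44 ± 0.32 CPM (SD, n = 4 libraries). Of all genes tested in these libraries, 5.67% were called higher in het and 4.81% in KO cells. The mean of both genotypes rose by 3.70 ± 0.56 (edgeR adjusted p = 0.000305), where 10.1% of genes were called higher. With all 20 libraries the het and KO changes were 2.81 ± 0.93 and 2.67 ± 0.97 and neither was called (edgeR adjusted p = 0.177 and 0.394). Only the mean of both genotypes was called with all 20 libraries, at 2.74 ± 0.67 (edgeR adjusted p = 0.024), in a comparison that called 5.02% of genes. The KO call was kept in 10 of 16 fits with 1 library left out. It was lost without KO control replicate 1, 2 or 3 or KO stimulated replicate 2, 3 or 5 (edgeR adjusted p = 0.0639 to 0.119).

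The highest Ch25h levels, 3.58 and 3.12 CPM, were in the stimulated libraries of animals 1 and 9, which also had the highest leukocyte marker sums of the stimulated group. The same 2 libraries had the highest tubular marker sums of that group, 1613 and 1730 CPM, and the lowest fibroblast sums, 33.4 and 449.3 CPM. In the KO animals 3, 6 and 10 the leukocyte sum was 6.66, 8.25 and 4.23 CPM in the stimulated library. In the control library it was 18.6, 15.5 and 11.2 CPM. Single markers went both ways. Csf1r and Lyz2 were lower in the stimulated libraries, Csf1r at 3.33, 1.324 and 0.477 CPM against 15.43, 5.316 and 7.295 CPM. Cd68 was at 1.952, 1.625 and 1.371 CPM in stimulated against 1.98, 0.935 and 0.802 CPM in control libraries. Adgre1 was at 0.459, 0.722 and 0.417 CPM against 0, 0.117 and 0.438 CPM. In the same animals Ch25h was higher in the stimulated library by 3.68, 3.89 and 1.75 on the log2 scale. The part of leukocytes, or of other culture differences, in the Ch25h level of animals 1, 3, 6, 9 and 10 was not tested.

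**Figure D1:**
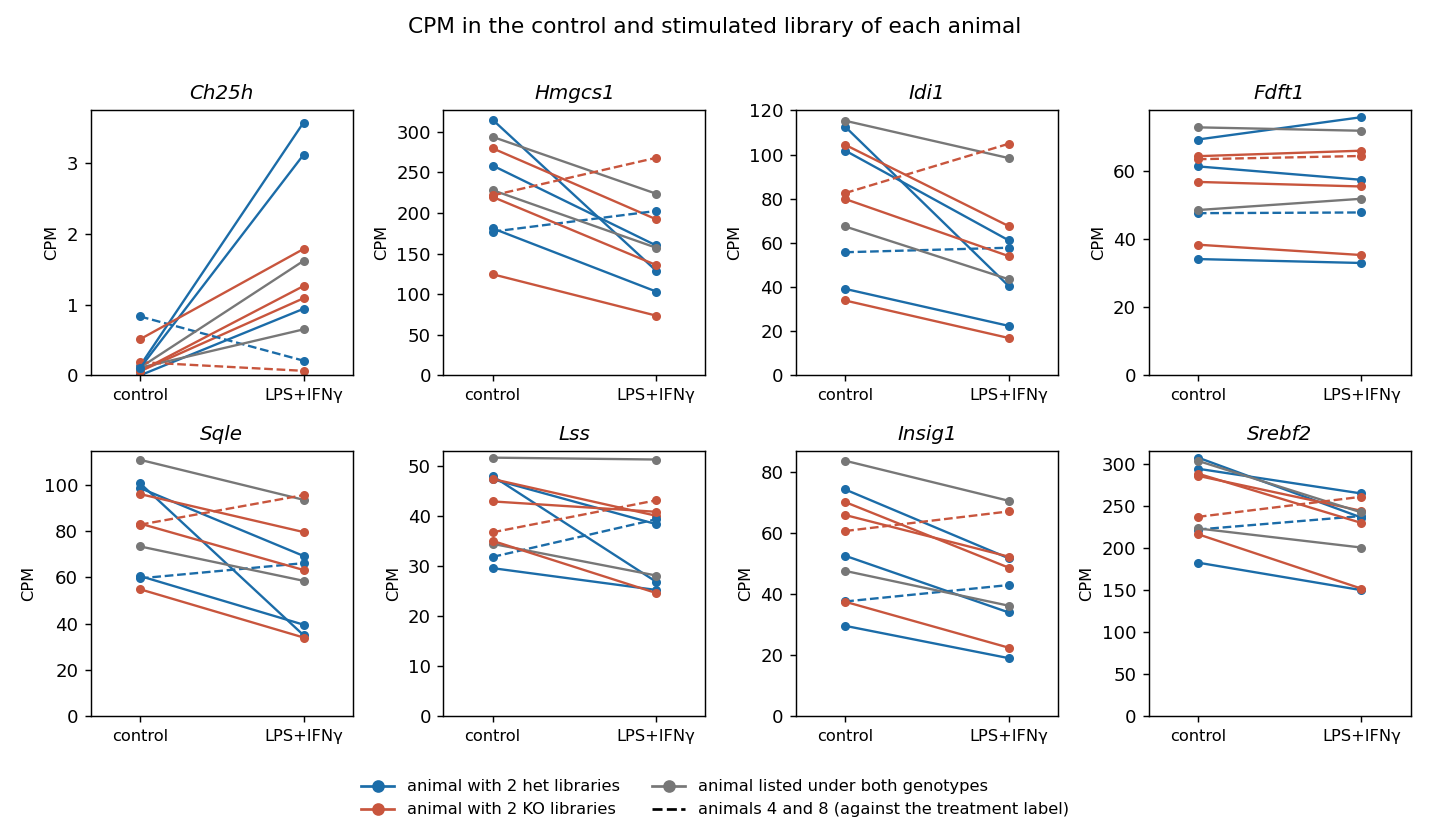
CPM of the 8 genes (linear axis from 0) in the control and stimulated library of each of 10 animals, joined by a line. Ch25h climbs and 6 of the other genes slope down in the 8 animals drawn with solid lines, while animals 4 and 8, dashed, slope the other way and Fdft1 is nearly level.

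Hmgcs1 encodes the cytosolic HMG-CoA synthase, an early step of the mevalonate pathway. In het control replicates 1 to 5 it was at 315, 258, 228, 181 and 177 CPM. In het stimulated replicates 1 to 5 it was at 129, 159.9, 224, 103 and 202 CPM. In KO control replicates 1 to 5 it was at 279.5, 294, 219.7, 221.5 and 124.5 CPM. In KO stimulated replicates 1 to 5 it was at 192, 136, 157, 268 and 73.55 CPM. The groups overlapped, with animals 9 and 10 low and animal 5 high in both states, but the stimulated library was the lower in every animal except 4 and 8.

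Sqle encodes squalene epoxidase, which adds oxygen to squalene. Its levels in het control replicates 1 to 5 were 100.6, 98.5, 73.3, 60.6 and 59.55 CPM. Those in het stimulated replicates 1 to 5 were 35.0, 69.2, 93.4, 39.6 and 66.1 CPM. The largest drop was in animal 1, replicate 1. In KO control replicates 1 to 5 Sqle was at 95.9, 110.7, 83.2, 82.7 and 54.9 CPM. In KO stimulated replicates 1 to 5 it was at 79.5, 63.15, 58.5, 95.5 and 34.0 CPM. The same 2 animals, 4 and 8, had the higher level in the stimulated library.

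Insig1, an endoplasmic reticulum protein that retains the SREBP precursor and is itself an SREBP2 target, had the same arrangement. It was at 52.5, 74.2, 47.6, 29.6 and 37.6 CPM in het control replicates 1 to 5. It was at 34.0, 51.7, 70.5, 19.05 and 43.0 CPM in het stimulated replicates 1 to 5. KO control replicates 1 to 5 had 65.9, 83.6, 70.1, 60.6 and 37.5 CPM and KO stimulated replicates 1 to 5 had 52.25, 48.6, 36.2, 67.05 and 22.5 CPM. Among the remaining genes, Idi1 (isopentenyl diphosphate isomerase) spanned 33.9 to 115 CPM in control and 16.9 to 105 CPM in stimulated libraries. Lss (lanosterol synthase, which closes the sterol rings) spanned 29.6 to 51.6 and 24.6 to 51.2 CPM. Srebf2 spanned 183 to 307 and 149.9 to 265 CPM. Fdft1 (squalene synthase) spanned 34.2 to 72.95 and 33.1 to 75.9 CPM.

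Within animals the stimulated library was compared with the control library of the same animal. Hmgcs1, Idi1, Sqle, Lss, Insig1 and Srebf2 were all lower in the stimulated library of each of the 8 animals that followed the treatment label, a pattern that 13.1% of tested genes showed. All 6 were higher in the library labelled stimulated of animals 4 and 8, so that their direction went with the state read from Nos2 and Gbp2. Of tested genes 9.47% showed both features. Some of these differences were small, such as log2 ratios of 0.05 for Idi1 and 0.10 for Srebf2 in animal 4. The 95% counting limits of Idi1 overlapped there. Ch25h had the mirrored pattern, higher in 8 animals and lower in animals 4 and 8, as did 10.7% of tested genes. For Hmgcs1 the log2 ratio was -1.29, -0.69, -0.54, -0.39, -0.69, -0.54, -0.81 and -0.76 in animals 1, 2, 3, 5, 6, 7, 9 and 10, and 0.19 and 0.27 in animals 4 and 8. For Insig1 the 8 ratios ran from -0.74 to -0.25, and for Srebf2 from -0.51 to -0.15. Sqle and Idi1 were spread more widely, from -1.52 to -0.24 and from -1.48 to -0.23, with animal 1 the lowest in both. Lss ran from -0.84 to -0.01, the latter in animal 5, whose pair is listed under both genotypes. Fdft1 stayed between -0.12 and 0.13 in all 10 animals, below 0 in 5 and above 0 in 5. As labelled, over the 8 animals listed under 1 genotype, animals 4 and 8 included, none of the 8 genes changed in 1 direction in every animal.

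**Figure D2:**
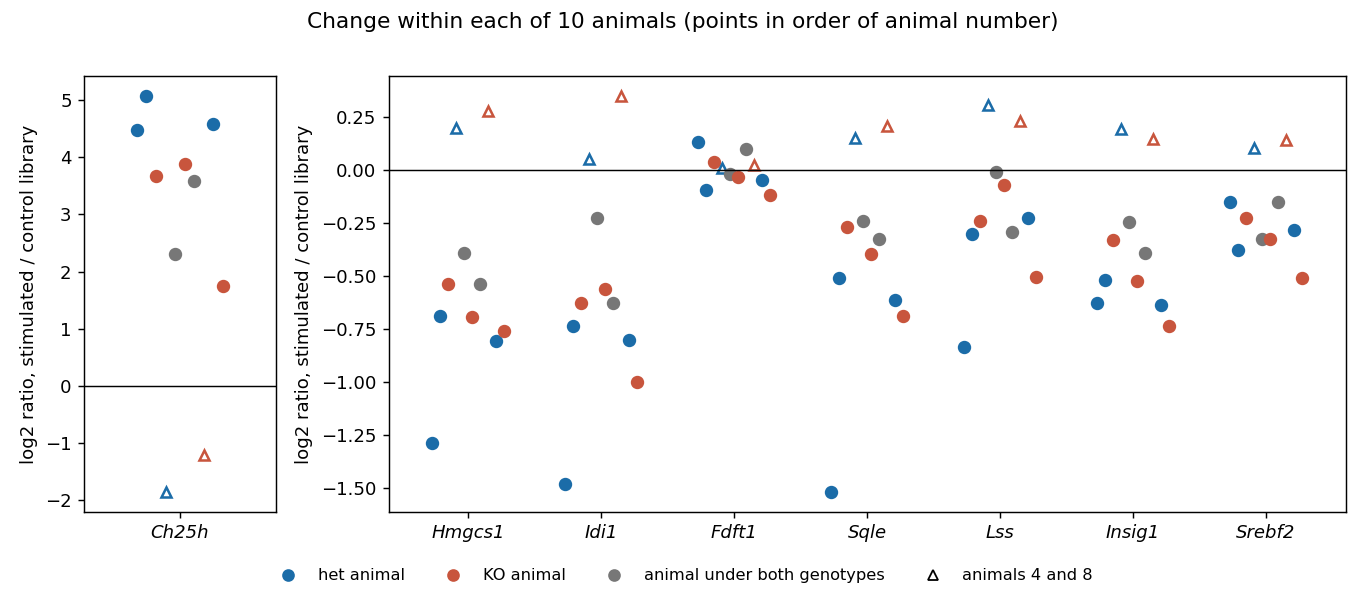
Log2 ratio of the stimulated to the control library (prior count 0.5) for each of 10 animals, Ch25h on its own axis on the left. Filled points of the 8 animals that followed the label lie above 0 for Ch25h and below 0 for 6 genes, the triangles of animals 4 and 8 lie on the other side, and Fdft1 straddles 0.

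In the test that treats libraries as separate samples, none of the 7 cholesterol genes was called in any stimulation comparison. With all 20 libraries edgeR called 0% of genes in het and 0% in KO cells. 1981 and 1307 genes had an unadjusted p under 0.05, DESeq2 called 483 and 115, and limma-voom called 0 in both. Over the 16 libraries the Hmgcs1 change was -0.67 ± 0.32 in het, -0.72 ± 0.32 in KO and -0.70 ± 0.23 in the mean of genotypes (edgeR adjusted p = 0.255, 0.281 and 0.0552), where 1.48%, 0.95% and 4.88% of genes were called lower. Among the 7 genes the unadjusted p was under 0.05 for 0 in het, for Hmgcs1 alone in KO, and for Hmgcs1 and Sqle in the mean. DESeq2 called Hmgcs1 in the mean of genotypes (adjusted p = 0.0168) and limma-voom called none of the 7. The share of all genes that DESeq2 called there is not given here, and the percentages above are edgeR's. The median change of the 7 was -0.22 in het, -0.55 in KO and -0.45 in the mean, beside -0.03, -0.0059 and -0.02 over all genes tested. Leaving out KO stimulated replicate 1, het stimulated replicate 3, het control replicate 4 or KO control replicate 5 brought Hmgcs1 below the threshold in the mean of genotypes (edgeR adjusted p = 0.0241 to 0.0489).

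Control and stimulated libraries came from the same animals, so a fit with the animal as a block was also run (the replicate block, edgeR, 16 libraries). It called 6 of the 7 cholesterol genes lower in the mean of genotypes, 4 in het and 3 in KO cells. Of all genes tested it called 16.1%, 7.96% and 5.06% lower. In het cells Hmgcs1 fell by 44.4%, Idi1 by 46.3%, Sqle by 41.8% and Insig1 by 30.9% (edgeR adjusted p = 0.00434, 0.0109, 0.028 and 0.0102). The log2 changes were -0.85 ± 0.13, -0.90 ± 0.17, -0.78 ± 0.19 and -0.53 ± 0.10. This fit called 7.96% of all genes lower and 10.7% higher in het cells. Lss at -0.40 ± 0.14 and Srebf2 at -0.25 ± 0.08 were not called (edgeR adjusted p = 0.0727 and 0.0625). In KO cells Hmgcs1 fell by 33.2%, Insig1 by 27.7% and Srebf2 by 20.9% (edgeR adjusted p = 0.0236, 0.0183 and 0.0283), where 5.06% of genes were called lower and 8.39% higher. Idi1 at -0.61 ± 0.17, Sqle at -0.35 ± 0.19 and Lss at -0.22 ± 0.14 were not called in KO cells (edgeR adjusted p = 0.0535, 0.284 and 0.347). Fdft1 was at 0.01 ± 0.07 in het and -0.02 ± 0.07 in KO cells (edgeR adjusted p = 0.94 and 0.881).

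For the mean of both genotypes with the animal as a block, Hmgcs1 fell by 39.1%, Idi1 by 40.7%, Sqle by 32.5%, Insig1 by 29.3%, Lss by 19.4% and Srebf2 by 18.5% (edgeR adjusted p from 0.000504 for Hmgcs1 to 0.0272 for Lss). In that comparison 16.1% of genes were called lower and 17.3% higher, so a call by itself was common, and the within-animal patterns above restate the same libraries. With the block Ch25h rose by 4.70 ± 0.61 in het, 2.80 ± 0.57 in KO and 3.75 ± 0.39 in the mean (edgeR adjusted p = 0.00156, 0.0135 and 0.000193). Without animal 3 or 6 no member was called in KO cells, and without animal 10 only Ch25h was. Srebf2 in KO cells also lost its call without animal 7. In het cells Sqle lost its call without animal 3 or 9, and in the mean Lss lost its call without animal 3 or 10. The block called no member over all 20 libraries, where Hmgcs1 was at -0.53 ± 0.15 and Ch25h at 2.79 ± 0.80 in the mean of genotypes (edgeR adjusted p = 0.104 for both).

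**Figure D3:**
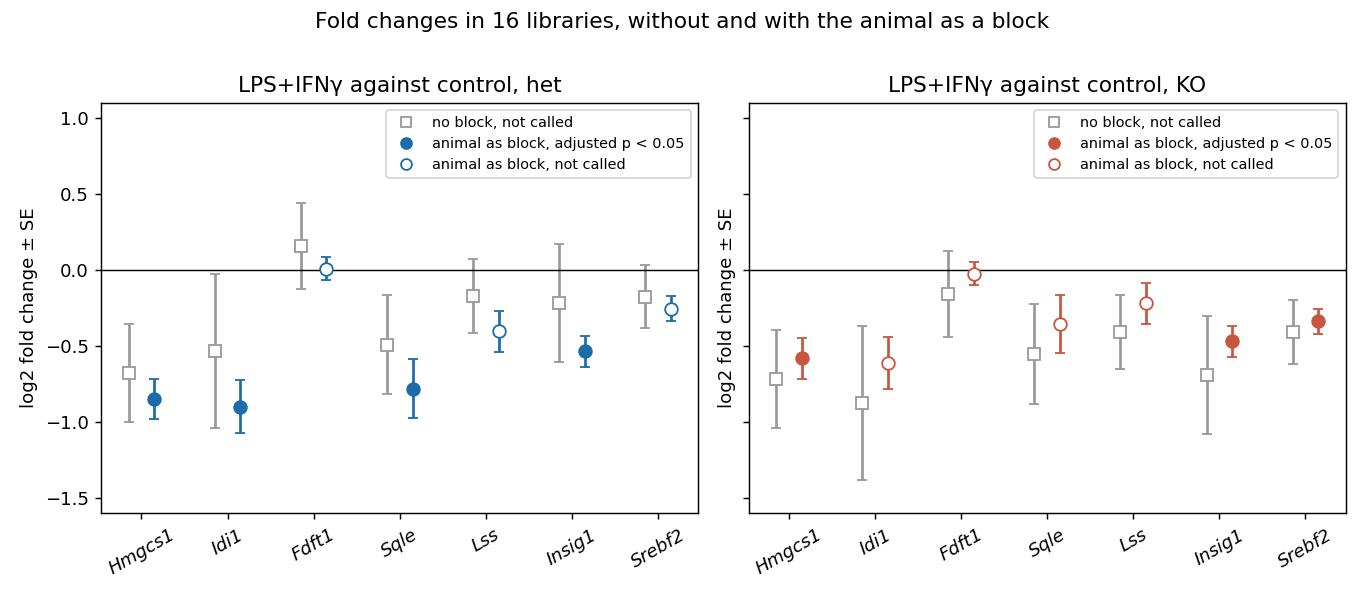
Log2 fold change with SE of the 7 cholesterol genes, LPS+IFNγ against control, in het (left) and KO (right) cells over 16 libraries, from the edgeR fit without a block (squares) and with the animal as a block (circles, filled where the adjusted p was under 0.05). No square is filled, and 4 circles in het and 3 in KO cells are.

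Within the stimulated libraries, Ch25h was set against each of the 7 genes, and the same was done within the control libraries, giving 14 relations on log2 CPM. All 14 Pearson coefficients were negative and none passed after adjustment over the 14 (permutation of 100000 resamples, two-sided). In the 10 stimulated libraries Hmgcs1 had r = -0.763 (permutation p = 0.0104, adjusted p = 0.082) and Spearman's rho = -0.915 (permutation p = 0.00061, adjusted p = 0.00854). Ranks passed for 5 genes there, Hmgcs1, Idi1, Sqle, Lss and Insig1, with rho from -0.915 to -0.782. The 2 stimulated libraries farthest from the median Ch25h were those of animals 4 and 8, so leaving out the farthest 2 gives the 8 stimulated libraries that followed the label. In those 8, Sqle had r = -0.896 (exact permutation p = 0.00293, adjusted p = 0.0325) and Lss r = -0.873 (exact permutation p = 0.00464, adjusted p = 0.0325). Leaving out a further 2 farthest libraries gave -0.86 and -0.924. Hmgcs1 had r = -0.66 (exact permutation p = 0.0724, adjusted p = 0.203) and rho = -0.857 (exact permutation p = 0.0107, adjusted p = 0.0375). By ranks 4 genes passed in those 8, and Lss no longer did (rho = -0.81, exact permutation p = 0.0218, adjusted p = 0.061).

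In the 8 control libraries that followed the label no relation passed (Pearson r from -0.601 to -0.418, smallest adjusted p = 0.225 by exact permutation), and without the 2 farthest libraries r ran from -0.351 to 0.202. Ch25h there rests on 0 to 7 counts a library. The stimulated libraries pool both genotypes, 4 of each, which is too few for a value within a genotype. Those with the most Ch25h and the least Sqle include animals 1 and 9, and animal 10, whose sterol genes were low in the control library as well. Animals 1 and 9 are the cultures with the leukocyte markers. Their stimulated libraries also had the highest tubular and the lowest fibroblast marker sums of the stimulated group. The part of these culture differences in the relation was not tested.

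**Figure D4:**
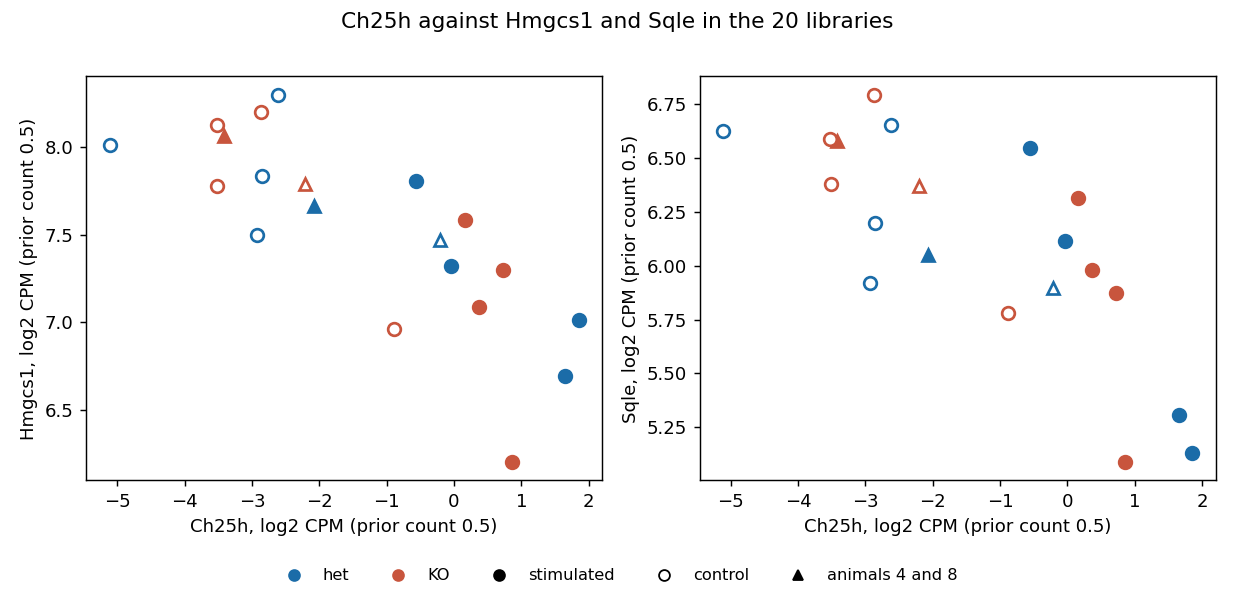
Log2 CPM of Hmgcs1 (left) and Sqle (right) against that of Ch25h in 20 libraries, coloured by genotype, filled where labelled stimulated, with triangles for animals 4 and 8. The stimulated libraries that followed the label lie to the right and slope down, and the 2 filled triangles lie among the control libraries.

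Other genes of sterol metabolism are given over the 16 libraries, in the mean of genotypes unless a genotype is named, and values for all 20 libraries are named as such. Over all 20 libraries the block called 0 genes in any stimulation comparison, and in het or KO cells alone the fit without a block called 0 as well. Of 17 further synthesis genes the fit without a block called 1 in the mean of genotypes, where 4.88% of all genes were called lower and 10.1% higher. This was Pmvk (phosphomevalonate kinase), lower by -0.78 ± 0.14 on the log2 scale (edgeR adjusted p = 0.00101). It was also called with all 20 libraries, at -0.57 ± 0.15 (edgeR adjusted p = 0.0301), in a comparison that called 5.02% of genes. With the block 7 of the 17 were lower and 3 higher, where 16.1% of all genes were lower and 17.3% higher. Pmvk fell by 41.9% and Msmo1 (a sterol methyl oxidase) by 24.3% (edgeR adjusted p = 0.000627 and 0.00112). Hsd17b7, a sterol ketoreductase, rose by 30.9% (edgeR adjusted p = 0.000484). Mvd, Cyp51 and Sc5d were also called lower, and Fdps and Ggps1, prenyl diphosphate synthases, the others called higher. The median of the 17 was -0.21, beside -0.02 over all genes. Within animals 8 of the 17 were lower in all 8 animals that followed the label, as were 13.1% of all tested genes.

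Among 13 genes of SREBP control and cholesterol uptake, Npc2, which moves cholesterol out of lysosomes, and Rnf139, a ubiquitin ligase of the endoplasmic reticulum, rose in both genotypes without a block. In the mean of genotypes they rose by 0.91 ± 0.12 and 0.40 ± 0.07 on the log2 scale (edgeR adjusted p = 0.000111 and 0.000695), beside 10.1% of all genes called higher. With all 20 libraries the mean of genotypes was at 0.71 ± 0.15 and 0.30 ± 0.09 and both stayed called (edgeR adjusted p = 0.013 and 0.0486), beside 5.02% of all genes. With the block Stard4, a sterol carrier, fell by 44.4% (edgeR adjusted p = 0.00164), giving 2 higher and 2 lower of 13, close to the 17.3% and 16.1% of all genes. Npc2 was not called in KO cells with the block, at 0.74 ± 0.22 (edgeR adjusted p = 0.06). Srebf1, Scap and Insig2 were at -0.08 ± 0.07, -0.0060 ± 0.12 and 0.07 ± 0.20 without a block (edgeR adjusted p = 0.477, 0.983 and 0.848).

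Fatty acid synthesis genes, targets of SREBP1 more than SREBP2, were mostly called only with the block. Without a block 1 of 10 was called lower in the mean of genotypes, beside 4.88% of all genes. This was Acly (ATP citrate lyase, the source of cytosolic acetyl-CoA), at -0.93 ± 0.19 (edgeR adjusted p = 0.00378). With all 20 libraries Acly was at -0.64 ± 0.20 and 0 of 10 were called (edgeR adjusted p = 0.0713). With the block 6 of 10 were lower, beside 16.1% of all genes, among them Acly by -0.94 ± 0.12, Elovl6 (a fatty acid elongase) by -0.84 ± 0.16, Fads1 (a desaturase) by -0.31 ± 0.07 and Fasn (fatty acid synthase) by -0.55 ± 0.14 on the log2 scale (edgeR adjusted p = 0.000483, 0.00438, 0.00783 and 0.0194). Acacb alone was higher, beside 17.3% of all genes.

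Of the oxysterol genes, 7 of 8 were tested. Cyp7b1, the hydroxylase that breaks down 25-hydroxycholesterol, rose with Ch25h. Without a block it rose by 3.39 on the log2 scale in het and 3.96 in KO cells (edgeR adjusted p = 0.00938 and 0.00402), where 5.67% and 4.81% of genes were called higher. With all 20 libraries these changes were 2.41 ± 0.93 and 2.93 ± 0.95 and neither was called (edgeR adjusted p = 0.249 and 0.339), while their mean was, at 2.67 ± 0.66 (edgeR adjusted p = 0.0255). Over the 16 libraries, its level in het cells was 1.98 ± 2.16 CPM in control compared with 20.7 ± 10.9 CPM after stimulation, and in KO cells 1.75 ± 1.20 CPM compared with 27.0 ± 11.1 CPM (SD, 4 libraries each). Osbp, an oxysterol-binding lipid transporter, fell by 0.31 ± 0.09 in the mean of genotypes (edgeR adjusted p = 0.0338), beside 4.88% of all genes called lower. It was at -0.22 ± 0.09 and not called with all 20 libraries (edgeR adjusted p = 0.178). The block added Cyp46a1, the cholesterol hydroxylase of neurons, as lower, giving 1 higher and 2 lower of 7, beside 17.3% and 16.1% of all genes. Of 8 tested genes of the LXR receptors, efflux and storage, only Nr1h2 (LXR beta) was called without a block. It was higher by 0.44 ± 0.09 (edgeR adjusted p = 0.0031), beside 10.1% of all genes called higher. With all 20 libraries it was at 0.33 ± 0.10 and no gene of this list was called (edgeR adjusted p = 0.0756). With the block Nceh1 (a cholesteryl ester hydrolase) was higher, and of 3 LXR targets the exporter Abcg1 was higher and Apoe and the exporter Abca1 lower, giving 3 higher and 2 lower of 8, beside 17.3% and 16.1% of all genes. Apoe, at -1.25 ± 0.12 (edgeR adjusted p = 0.000163), was most abundant in the control culture of animal 9, at 231 CPM, where leukocyte markers were also highest, and the part of those cells was not tested.

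**Figure D5:**
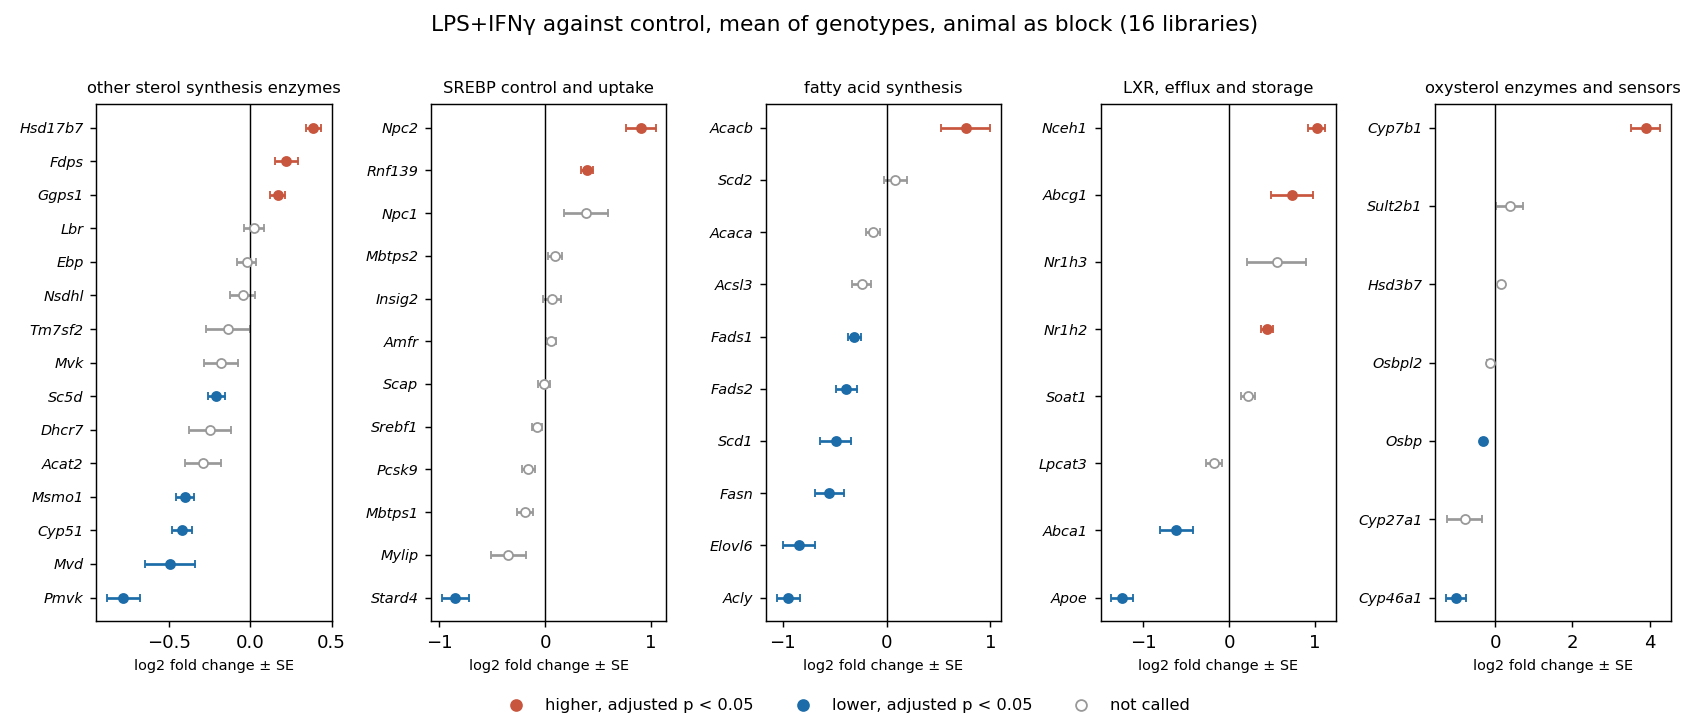
Log2 fold change with SE, LPS+IFNγ against control, mean of genotypes with the animal as a block, for genes of 5 lists (16 libraries; not every listed gene is drawn), with colour where the adjusted p was under 0.05. Called genes lie on both sides of 0 in all 5 lists.

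Genotype was compared within each state. edgeR called 0% of all genes in control cells, 0% in stimulated cells and 0% for the difference in response, with all 20 libraries and with 16 alike. Unadjusted p under 0.05 was reached by 499, 366 and 138 genes with 20 libraries and by 774, 787 and 224 with 16. DESeq2 called 2, 0 and 1 genes with 20 libraries and 0 in each with 16, and limma-voom called 0 throughout. Ch25h in KO against het control was at -0.39 ± 1.00 with 20 libraries and 0.91 ± 0.87 with 16 (edgeR adjusted p = 0.999 and 0.894), a change of sign. In stimulated cells it was at -0.54 ± 0.84 and -0.52 ± 0.66 (edgeR adjusted p = 1 and 0.826). The Ch25h response differed between genotypes by -1.44 ± 1.09 over 16 libraries (edgeR adjusted p = 1, unadjusted p = 0.208) and was not called. For the 7 cholesterol genes the KO against het change over 16 libraries ran from -0.10 (Hmgcs1) to 0.34 (Insig1) in control cells and from -0.29 (Idi1) to -0.01 (Sqle) in stimulated cells, with SEs of 0.21 to 0.51. The response differences ran from -0.47 (Insig1) to -0.04 (Hmgcs1), with SEs of 0.30 to 0.71. No genotype difference was detectable at this spread.

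Likeness was ranked among tested genes whose log2 CPM averaged at least 1, leaving out IDs without a symbol and predicted gene names. The genes whose log2 CPM ran most like that of Hmgcs1 over the 20 libraries, among 11227 such genes, were Stard4 (r = 0.982), Idi1 (0.954), Sqle (0.93), Hmgn1 (0.926), Gspt1 (0.913) and Mdh2 (0.909). The other members ranked lower, Insig1 at 48, Lss at 75, Srebf2 at 95 and Fdft1 at 516 (r = 0.834, 0.817, 0.806 and 0.651). Ch25h had r = -0.787 with Hmgcs1. The genes most like Ch25h among 11228 were Atm (0.939), Pnrc1 (0.929), Pla1a (0.928), Akr1b10 (0.924), Mgst1 (0.924) and Gsap (0.923). These coefficients describe 20 libraries that share animals and the split between control and stimulated cells.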

How the data were processed

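Counts per gene for 20 libraries were deposited by the authors as whole numbers. Salmon 1.10.2, DESeq2 1.45.3, R 4.4.1, FastQC 0.11.9 and the build GRCm39 are listed in the submitters' processing notes. Salmon gives estimated counts, so the deposited values were treated as estimated counts. Rounding changed 0 values. The sources used here do not give the strand setting or the step from transcripts to genes. Reads shared with near-identical copies make single values uncertain.

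Per the labels' protocols the library kit is directional and was used on total RNA, and whether the libraries of a group come from separate cultures is given only by the animal ID, so p-values measure the spread between libraries. Symbols were found for 51425 IDs (92%). Genes were tested in R 4.3.3 with edgeR 4.0.16 (TMM, filterByExpr, robust quasi-likelihood fit of 4 group means, Benjamini-Hochberg adjusted p under 0.05 over all genes tested). CPM uses total counts times the TMM factor, and log2 CPM a prior count of 0.5. The SE is the log2 change over the square root of F. Counting limits at 0 are 3 counts and cover counting error only.

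Control and stimulated libraries of 1 animal are paired by the animal ID in the labels. The correlation of the libraries' deviations from their group means was -0.287 to 0.582 within animals and above 0.1 in 8 of 10, and animals 4 and 8 were negative. The members, the lists and the 16-library set were chosen with earlier results of these data known. The text names the members, and of each list up to 5 called genes by lowest p. Other called genes were named after their values were seen, as were Srebf1, Scap, Insig2, Cyp46a1 and Abcg1. Alternatives were DESeq2's size factors, other filters, DESeq2 1.42.0, limma-voom (limma 3.58.1), the block, only the 2 groups compared and leaving out libraries. Fits of the block without single animals, with other scaling or filter, and without animals 5 and 7 were chosen after seeing the data. On simulated data for stimulation in het, log2 changes of 1 and 2 were recovered in 44% and 83% of 100 genes each with 16 libraries (14432 genes tested), in 72% and 95% with the block (14404) and in 54% and 84% with 20 libraries (14355). False calls made up 7.3%, 5.65% and 6.76% of the calls. Only genes averaging more than 20 expected counts were given a change, so the recovery does not cover genes with fewer counts. Every simulated library followed its label. The recovery with 20 libraries therefore does not describe the real 20, of which 4 went against theirs. Some listed genes are not reported here.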

Additional observations from a re-analysis of the deposited data

Results flagged for a closer look

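In 3 of 32 sets of 5 libraries (8 genes in 4 groups) 1 library stood apart from the rest of its group, and chance flags about 1 in 20 such sets. Ch25h in het control replicate 5 was at 0.834 CPM, with the next library at 0.134 CPM. This is animal 4, whose Nos2, Gbp2 and Tap1 also went against the control label. Ch25h in KO control replicate 5 (animal 10) was at 0.511 CPM, from 7 counts, with 95% counting limits of 0.205 to 1.05 CPM. The next library, at 0.187 CPM from 3 counts (limits 0.0386 to 0.548 CPM), is of animal 8, which went against the label. KO control replicates 1, 2 and 3 had 1, 2 and 1 counts, with upper limits of 0.325, 0.391 and 0.326 CPM. Without KO control replicate 5 the KO against het control difference of Ch25h changed sign over 16 libraries. Srebf2 in het stimulated replicate 4 (animal 9) was at 150 CPM, below the next library at 236 CPM. The control library of animal 9 was also the lowest of its group, at 183 CPM.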

How the results depend on the processing

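The number of the 8 members called was 1 (Ch25h) in the mean of genotypes with 20 libraries and in het, KO and the mean with 16. With 20 libraries it was 0 under the CPM filter, limma-voom and the replicate block, and 0 to 1 with 1 library left out (0 without het stimulated replicate 1, het control replicate 3, KO control replicate 1, 2 or 3, or KO stimulated replicate 5). With 16 libraries the CPM filter (at least 1 in 8 libraries) gave 0 in het, KO and the mean, because it removes Ch25h. The replicate block gave 5 in het, 4 in KO and 7 in the mean. DESeq2 gave 2 in the mean, and leaving out 1 library gave 1 to 2 in the mean and 0 to 1 in KO. Leaving out animals 5 and 7 gave 0 in KO without the block. With the block, leaving out 1 animal gave 0 to 6 in KO against a full count of 4. Members changing in 1 direction in every animal numbered 0 over the 8 animals of 1 genotype as labelled and 7 over the 8 that followed the label. Relations of Ch25h passing by Pearson's r numbered 0 of 14, and 2 without animals 4 and 8.

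Ch25h in KO against het control with 20 libraries was -0.39, but 0.064 by limma-voom, 1.05 with the block and -1.15 to 0.92 with 1 library left out. With 16 libraries it was 0.91, and -0.23 to 1.22 with 1 left out. In stimulated cells with 20 libraries the block gave 0.27. Both genotype values with the block rest on animals 5 and 7, the 2 listed under both genotypes. The difference in response of Ch25h with 20 libraries ran from -1.47 to 0.61 with 1 library left out. The Insig1 change in het without a block ran from -0.55 to 0.024 and that of Fdft1 from -0.011 to 0.35. With the block Fdft1 ran from -0.041 to 0.070 in het, from -0.062 to 0.018 in KO with 1 animal left out, and was -0.001 in het without animals 5 and 7. None of these reversed values was called, and their cause was not tested. The block changed no other count of called members. Ch25h rests on 0 to 59 counts, which limits its fold changes.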
